A study of Mus musculus with 10 samples.

Results

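The 10 genes described here encode the interleukin-7 receptor and STAT5 pathway of mouse leukemia initiating cells. They are the receptor chain genes Il7r, Il2rg and Crlf2, the kinase genes Jak1 and Jak3, the transcription factor genes Stat5a and Stat5b, and 3 genes that STAT5 is known to induce, Cish, Socs2 and Pim1. They were taken by name from 55494 annotated genes, by a rule that uses no measured value, though with earlier results of these data known. All 10 passed the filter on low counts that left 13729 genes for testing. The libraries came from sorted spleen cells of 13-day-old pups, 5 collected 7 days after 20 µg of Poly(A:U), a double-stranded RNA made synthetically, and 5 collected 7 days after 50 µl of PBS. Pups of both groups carried the RFP/RET transgene, called Eμ-Ret in the study, and the stated question was what Poly(A:U) does to these cells. An Eμ transgene is driven by the enhancer of the immunoglobulin heavy chain locus and so is active in the B lineage. The sources used here name neither the surface markers of the sort nor the litters of the pups.

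Interleukin-7 is made by stromal cells and binds a receptor of 2 chains, the interleukin-7 receptor alpha chain and the common gamma chain. JAK1 sits on the alpha chain and JAK3 on the gamma chain, and together they phosphorylate STAT5A and STAT5B, which then enter the nucleus and switch on target genes. In mice the pathway is needed for the survival and growth of pro-B and pre-B cells, and activating lesions of its receptors and kinases occur in human B cell precursor leukemia. The alpha chain also pairs with the product of Crlf2 to form the receptor of thymic stromal lymphopoietin.

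The libraries held between 17859006 and 22587871 estimated reads, and from 2.93% to 5.53% of the reads were mitochondrial. The summed level of 10 B cell precursor markers was 9712 to 11418 CPM (read counts scaled to the library total) in Poly(A:U) libraries. In PBS libraries it was 7925 to 12735 CPM. Cd79a, which encodes a signalling chain of the pre-B cell receptor, was the highest of these markers. Within PBS the sum was 11955 to 12735 CPM in PBS 1 to PBS 3, above all other libraries, 7925 CPM in PBS 4 and 11069 CPM in PBS 5. PBS 4 stood apart with the lowest of these sums and with T cell markers at 213.5 CPM, against 22.1 to 40.5 CPM in Poly(A:U) libraries and 25.3 to 28.4 CPM in the other PBS libraries. PBS 1 to PBS 3 have deposited names with a shared start that no other library has. They also carried Y-linked Ddx3y at 42.8 to 51.6 CPM, while none of the other 7 exceeded 4.67 CPM. Xist, the RNA that coats the inactive X chromosome in females, was at 0.053 to 0.34 CPM in those 3 libraries, against 112 to 687 CPM in the other 7. Contrasts with PBS 1 to PBS 3 are therefore also contrasts of sex as these genes show it, and sex and treatment cannot be told apart there. Because the start occurs in PBS libraries alone, what it marks and the absence of Poly(A:U) cannot be told apart in those 3, and results below are also given for PBS 1 to PBS 3 and for PBS 4 and PBS 5 apart.

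In TPM, a measure scaled for transcript length that allows genes to be compared, Jak1, Il7r and Il2rg led. Jak1 averaged 149 ± 34 TPM (SD, n = 10 libraries), Il7r 126 ± 27.1 TPM and Il2rg 116 ± 10.9 TPM, levels above those of 92.9%, 91.6% and 90.7% of tested genes. Pim1 at 88.7 ± 14.4 TPM and Crlf2 at 86.0 ± 12.2 TPM followed. Socs2 stood at 47.0 ± 10.2 TPM, Jak3 at 28.5 ± 3.2 TPM, Stat5b at 27.9 ± 4.2 TPM, Stat5a at 18.8 ± 6.1 TPM and Cish at 3.16 ± 1.11 TPM. The difference between the means of neighbours in this order was below the sum of their SDs for Jak1 and Il7r, Il7r and Il2rg, Pim1 and Crlf2, Jak3 and Stat5b, and Stat5b and Stat5a. Within libraries, Jak1 nonetheless lay above Il7r in 9 of 10, Il7r above Il2rg in 8, Pim1 above Crlf2 in 5, Jak3 above Stat5b in 6 and Stat5b above Stat5a in 9. The other neighbours differed by more than the sum of their SDs, with Il2rg above Pim1 in 10 libraries, Crlf2 above Socs2 in 9, Socs2 above Jak3 in 9 and Stat5a above Cish in 10. Cish was thus the lowest of the genes by a wide margin, resting on 41 to 209 reads per library, while each of the other 9 had 810 reads or more in each library.

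**Figure D1:**
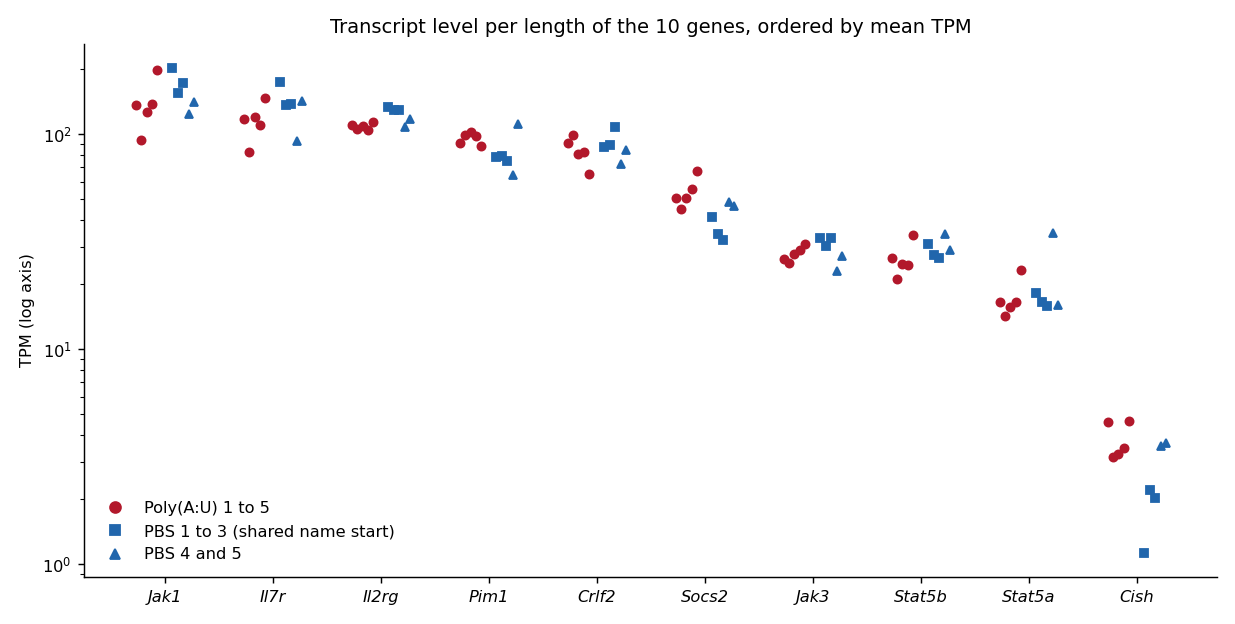
TPM of the 10 genes in each library on a log axis, ordered by mean, with Poly(A:U) libraries (circles) left of PBS libraries (squares for PBS 1 to PBS 3, triangles for PBS 4 and PBS 5). Jak1, Il7r and Il2rg overlap at the top, PBS 4 stands out for Stat5a at 34.6 TPM, and Cish is lowest at 1.13 to 4.62 TPM.

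Poly(A:U) against PBS, none of the 10 genes passed edgeR's quasi-likelihood test over all genes, with adjusted p-values from 0.677 to 0.872, and 0% of the 13729 genes were called. At an unadjusted p below 0.05 there were 2 of the 10, Il7r and Socs2, against 7.3% of all genes. DESeq2's Wald test called 0 of the 10, against 0.0947% of all genes. Limma voom with quality weights called 4 of the 10, against 6.79% of all genes: Il7r (log2 fold change -0.28, adjusted p = 0.0351), Jak1 (-0.34, 0.0312), Cish (1.15, 0.0304) and Socs2 (0.48, 0.0276). That test gave PBS 4 a weight of 0.222 and Poly(A:U) 5 a weight of 0.335, the lowest of the 10 libraries. Without PBS 5, edgeR called 0 of the 10, against 0.13% of all genes. The groups overlapped for each of the 10 genes, while they did not for 0.947% of all genes. The log2 fold change was negative for the 7 receptor, kinase and STAT genes and positive for the 3 target genes, with a median of -0.12 over the 10 and of -0.0024 over all tested genes. The 95% interval lay within a 2-fold change either way for 9 of the 10, Cish being the exception, and within a 1.5-fold change for 7. These intervals pool PBS 1 to PBS 3 with PBS 4 and PBS 5, which differ in the sex genes given above. Against PBS 4 and PBS 5 alone, the interval of Stat5a reached -1.09, beyond 2-fold, and that of Stat5b -0.60, beyond 1.5-fold. Against PBS 1 to PBS 3 alone, that of Jak1 reached -0.61, also beyond 1.5-fold. These are values of bulk RNA, in which fewer cells that carry a transcript and less of it per cell cannot be told apart.

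**Figure D2:**
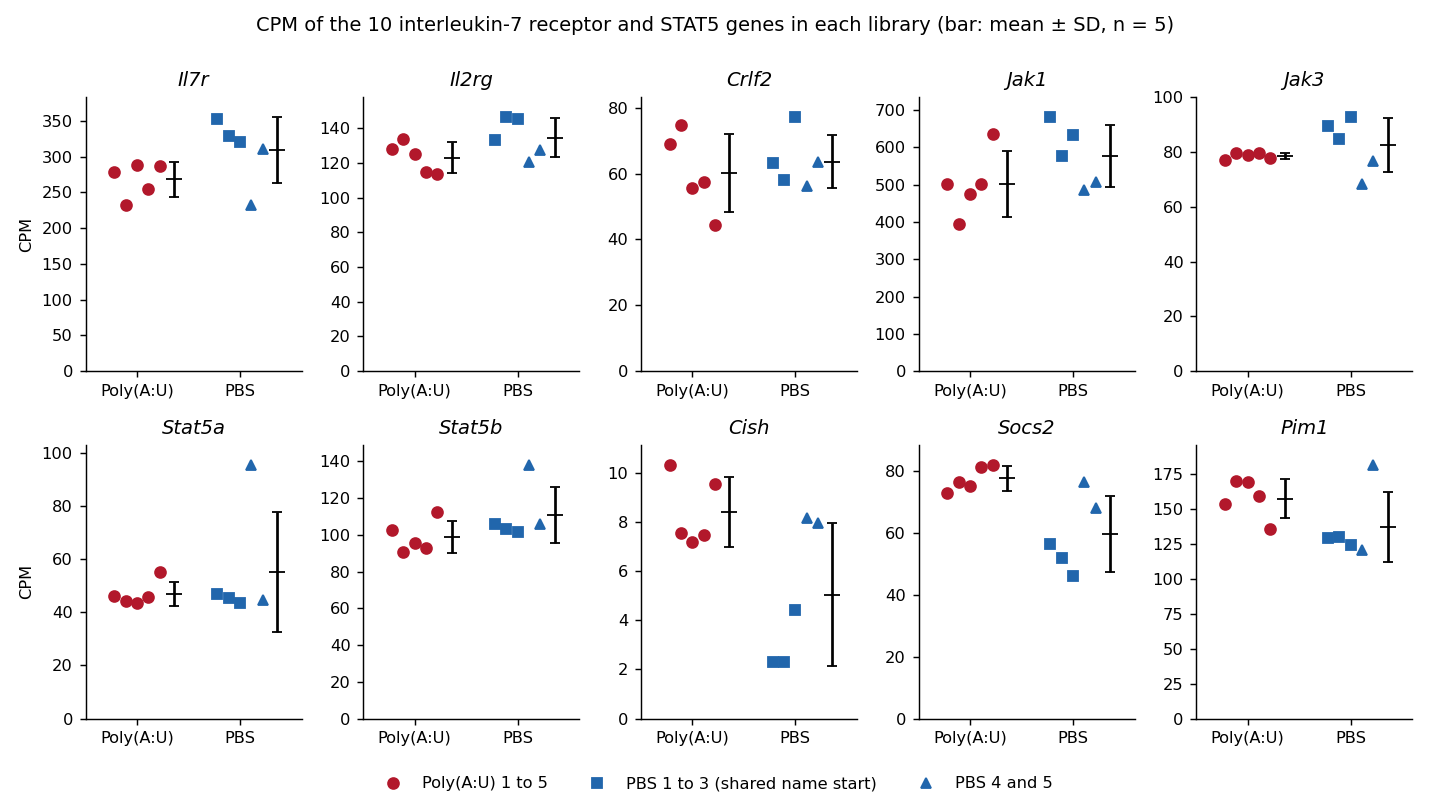
CPM of each gene in each library, with Poly(A:U) left of PBS, and the mean ± SD of 5 libraries as a bar. Cish and Socs2 are lowest in PBS 1 to PBS 3 (squares), while PBS 4 and PBS 5 (triangles) lie in or near the Poly(A:U) range, and Stat5a is highest in PBS 4.

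Of the receptor chain genes, Il7r, on chromosome 15 of mm10 (9505788 to 9530176, minus strand), encodes the alpha chain that makes a cell responsive to interleukin-7. It had 278, 232, 288, 255 and 287 CPM in Poly(A:U) 1 to 5, against 353, 329, 320.2, 233 and 311 CPM in PBS 1 to 5. All 5 Poly(A:U) libraries lay below the PBS mean, but PBS 4 was as low as the lowest of them. The means were 268 ± 24 CPM in Poly(A:U) and 309 ± 45.5 CPM in PBS (SD, n = 5 each). The log2 fold change was -0.23 with a 95% interval from -0.45 to -0.010 (adjusted p = 0.677, edgeR).

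Il2rg, on chromosome X (101264378 to 101268255, minus strand), encodes the common gamma chain that several interleukin receptors share. It had 128, 134, 125, 115 and 114 CPM in Poly(A:U) libraries and 133, 146, 145, 120.3 and 128 CPM in PBS libraries. The groups overlapped, with PBS 2 and PBS 3 highest, and the log2 fold change was -0.15 ± 0.09 (SE, adjusted p = 0.695, edgeR). Crlf2, on chromosome 5 (109554709 to 109558993, minus strand), the partner chain for thymic stromal lymphopoietin, had 68.9, 74.7, 55.7, 57.5 and 44.3 CPM in Poly(A:U) libraries and 63.2, 58.0, 77.0, 56.3 and 63.6 CPM in PBS libraries. It spread more among libraries than Il2rg, with a coefficient of variation of 15.8% against 8.69%, and its log2 fold change was -0.10 ± 0.15 (adjusted p = 0.872, edgeR).

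Of the kinase genes, Jak1, on chromosome 4 (101152367 to 101265282, minus strand), had 503, 394, 474, 502 and 637 CPM in Poly(A:U) libraries and 681, 578, 634, 485 and 508 CPM in PBS libraries. Poly(A:U) 5 lay among the higher PBS libraries, and PBS 4 and PBS 5 lay among the Poly(A:U) libraries. Its log2 fold change was -0.23 ± 0.12 (SE, adjusted p = 0.695, edgeR). Jak3, on chromosome 8 (71676296 to 71690575, plus strand), had 77.0, 79.6, 78.8, 79.8 and 77.7 CPM in Poly(A:U) libraries and 89.6, 84.8, 92.6, 68.4 and 76.7 CPM in PBS libraries. The Poly(A:U) values were close together (SD 1.20 CPM), with PBS 1 to PBS 3 above all of them and PBS 4 and PBS 5 below all of them. Its log2 fold change was -0.09 ± 0.08 (adjusted p = 0.775, edgeR).

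The genes Stat5a (chromosome 11, 100859351 to 100885169, plus strand) and Stat5b (100780731 to 100850724, minus strand) encode near-identical proteins and lie 8626 bases apart. Stat5a had 46.2, 44.2, 43.5, 45.6 and 55.0 CPM in Poly(A:U) libraries and 47.0, 45.4, 43.6, 95.4 and 44.7 CPM in PBS libraries. PBS 4 was far above any other library, Poly(A:U) 5 was the next highest, and the other 8 lay between 43.5 and 47.0 CPM. The log2 fold change was -0.27 ± 0.21 (SE, adjusted p = 0.739, edgeR) and turned to 0.036 ± 0.080 without PBS 4. Stat5b had 103, 90.4, 95.8, 92.6 and 112 CPM in Poly(A:U) libraries and 106, 103, 102, 138 and 106 CPM in PBS libraries, again highest in PBS 4 and then in Poly(A:U) 5. Its log2 fold change was -0.20 ± 0.10 (adjusted p = 0.695, edgeR), and -0.097 without PBS 4.

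The T cell markers were highest in the same pair of libraries, which share a part of their deposited names. Their sum was 40.5 CPM in Poly(A:U) 5 and 213.5 CPM in PBS 4, and Cd3e, a chain of the T cell receptor complex, was at 2.97 CPM in Poly(A:U) 5 and 53.9 CPM in PBS 4, while the other 8 had no more than 0.53 CPM. None of the 10 T cell markers was at 0 in all libraries. Macrophage markers summed to 38.8 to 58.9 CPM in Poly(A:U) libraries, 176 CPM in PBS 4, 36.9 CPM in PBS 5 and 134 to 165 CPM in PBS 1 to PBS 3. The part of these markers in the levels of Stat5a and Stat5b was not tested. Of the 31-base windows of the main Stat5a transcript, 22.5% also occur in transcripts of Stat5b, and 10.6% of its 75-base windows do, so the authors' estimates had to share out some reads between the genes. Stat5a also overlaps Stat3 on the opposite strand (122 CPM on average), and whether strand was used in counting is not stated by the sources at hand.

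The share of Stat5b in the summed TPM of both genes was 61.8%, 59.8%, 61.2%, 59.7% and 59.1% in Poly(A:U) libraries and 63.0%, 62.1%, 62.6%, 49.9% and 64.3% in PBS libraries. The means were 60.3 ± 1.1% in Poly(A:U) and 60.4 ± 5.9% in PBS (SD, n = 5 each), a difference of -0.04 percentage points (p = 1, two-sided exact permutation test). PBS 4 decided this value. Without it the groups did not overlap and the difference was -2.67 percentage points. The same exact permutation test then gave p = 0.0159, the smallest p that 5 libraries against 4 allow. Leaving out any other single library gave p from 0.889 to 0.905 in this test. Without PBS 4 the PBS group was PBS 1 to PBS 3 and PBS 5, and for PBS 1 to PBS 3 sex and treatment cannot be told apart.

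Of the STAT5 target genes, Cish encodes a feedback inhibitor with an SH2 domain that binds activated cytokine receptors, and it is a classic direct target of STAT5. It lies on chromosome 9 (107296026 to 107302784, plus strand). Cish had 10.3, 7.53, 7.19, 7.45 and 9.54 CPM in Poly(A:U) libraries, against 2.30, 2.30, 4.43, 8.16 and 7.97 CPM in PBS libraries. PBS 1 to PBS 3 were below every Poly(A:U) library, and PBS 4 and PBS 5 lay within the Poly(A:U) range. The means were 8.40 ± 1.42 CPM in Poly(A:U) and 5.03 ± 2.90 CPM in PBS (SD, n = 5 each). The log2 fold change was 0.71 with a 95% interval from -0.06 to 1.47 (adjusted p = 0.695, edgeR).

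Socs2, a suppressor of cytokine signalling best known for limiting growth hormone signals in mice, lies on chromosome 10 (95385362 to 95417180, minus strand). It had 72.9, 76.6, 75.3, 81.3 and 82.0 CPM in Poly(A:U) libraries, against 56.3, 52.0, 46.2, 76.4 and 67.9 CPM in PBS libraries. The pattern was that of Cish, with PBS 1 to PBS 3 lowest, PBS 5 above them and PBS 4 within the Poly(A:U) range. The log2 fold change was 0.35 with a 95% interval from 0.08 to 0.62 (adjusted p = 0.677, edgeR).

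Pim1, which encodes a serine/threonine kinase that promotes survival and is induced by cytokines, lies on chromosome 17 (29490753 to 29496112, plus strand). It had 153, 169.9, 169, 159 and 136 CPM in Poly(A:U) libraries and 129.5, 129.7, 124, 121 and 181 CPM in PBS libraries. PBS 5 was the highest of all 10 libraries, while the other 4 PBS libraries lay below all Poly(A:U) libraries. Its log2 fold change was 0.18 ± 0.12 (SE, adjusted p = 0.71, edgeR).

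Promoters are shown for Cish and Il7r, the 2 of 9 members with a RefSeq promoter window that hold the STAT5-type motif TTCNNNGAA, which reads the same on both strands. The windows run from 250 bases before to 50 bases after the annotated start on GRCm38.p6, the build called mm10, and capitals mark the motif. The RefSeq starts used, and the whole windows, lie inside the GENCODE gene spans given above for both genes. By those spans the bases shown are within the annotated genes and not before their starts. Socs2 had no window and is named only.
Cish (chr9:107296409-107296708, plus strand): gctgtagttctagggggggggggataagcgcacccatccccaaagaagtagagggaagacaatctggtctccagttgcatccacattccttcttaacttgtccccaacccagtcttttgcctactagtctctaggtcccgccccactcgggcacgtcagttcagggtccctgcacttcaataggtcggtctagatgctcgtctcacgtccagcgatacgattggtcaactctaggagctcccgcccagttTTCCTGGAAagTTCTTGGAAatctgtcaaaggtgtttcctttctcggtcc
Il7r (chr15:9529827-9530126, minus strand): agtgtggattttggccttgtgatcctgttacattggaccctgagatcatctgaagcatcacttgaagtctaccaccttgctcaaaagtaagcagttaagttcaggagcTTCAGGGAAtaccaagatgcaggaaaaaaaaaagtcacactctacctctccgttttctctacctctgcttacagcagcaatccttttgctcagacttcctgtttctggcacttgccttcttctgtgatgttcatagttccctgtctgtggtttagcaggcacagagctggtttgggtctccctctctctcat
The Cish window holds TTCCTGGAA and TTCTTGGAA, which begin 11 bases apart at bases 251 and 262 of the window. The Il7r window holds TTCAGGGAA at base 109. Of the 12 windows of the members, 2 hold a match. Of 32851 promoter windows, 8.3% hold at least 1 match and 0.457% hold 2 or more. A match describes these letters and does not show that STAT5 binds there, and the windows of the other members say nothing about sites outside them.

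With the PBS libraries split by their name start, a split chosen after the values were seen, the fold changes of the target genes differed in size. Poly(A:U) against PBS 1 to PBS 3, edgeR called 2 of the 10 genes, both higher, against 2.28% of all genes. The first was Cish, at 8.40 ± 1.42 CPM in Poly(A:U) (SD, n = 5) and 3.01 ± 1.23 CPM in PBS 1 to PBS 3 (SD, n = 3), with a log2 fold change of 1.46 (95% interval 0.91 to 2.01, adjusted p = 0.0177, edgeR). The second was Socs2, at 77.6 ± 3.9 CPM in Poly(A:U) and 51.5 ± 5.1 CPM in PBS 1 to PBS 3, with a log2 fold change of 0.57 (95% interval 0.37 to 0.77, adjusted p = 0.0131, edgeR). Il7r had a log2 fold change of -0.34 and did not pass (adjusted p = 0.0950, edgeR). At an unadjusted p below 0.05 there were 7 of the 10, against 16.9% of all genes.

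Against PBS 4 and PBS 5, edgeR called 0 of the 10 genes and 0% of all genes for Poly(A:U), with Stat5a and Stat5b at an unadjusted p below 0.05, against 7.26% of all genes. Both were highest in PBS 4. Stat5a was at 95.4 CPM there and at 43.6 to 47.0 CPM in the other PBS libraries. Stat5b was at 138 CPM in PBS 4 and at 102 to 106 CPM in the others. In the same contrast Cish had a log2 fold change of 0.023 with a 95% interval from -0.56 to 0.60, Socs2 of 0.068 (-0.15 to 0.29) and Il7r of -0.053 (-0.30 to 0.20). With PBS 1 to PBS 3 set against PBS 4 and PBS 5, both groups being given PBS, Cish had a log2 fold change of -1.44 (95% interval -2.07 to -0.80, adjusted p = 0.0531, edgeR) and Socs2 of -0.50 (-0.74 to -0.26, adjusted p = 0.0673, edgeR), and 0 of the 10 genes passed, against 0.561% of all genes. At an unadjusted p below 0.05 there were 6 of the 10 in that contrast, Jak3, Stat5a, Il7r and Jak1 besides Cish and Socs2, against 18.7% of all genes. For Stat5a, PBS 5 lay within the range of PBS 1 to PBS 3, so its difference rests on PBS 4. These contrasts share libraries and are not independent of each other. PBS 1 to PBS 3 did not overlap the other 7 libraries for 4 of the 10 genes, against 11.2% of all genes. They were above the others for Il7r and Jak3 and below them for Cish and Socs2.

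**Figure D3:**
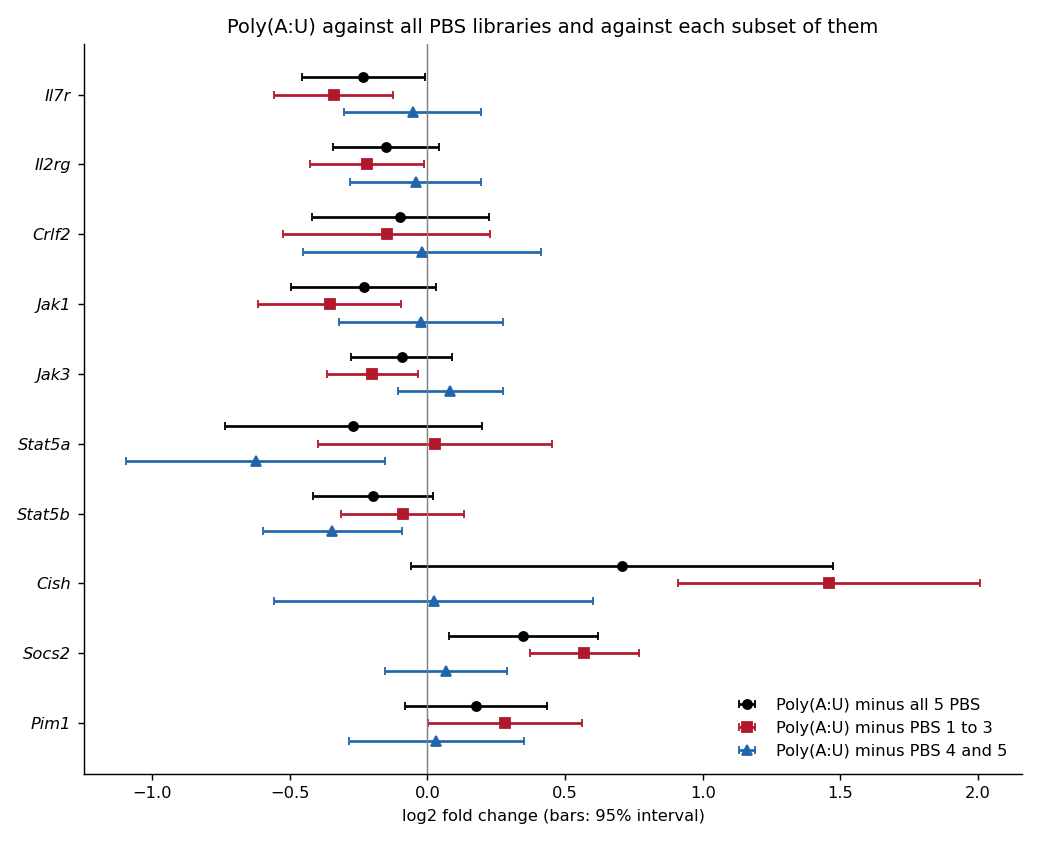
Log2 fold changes of the 10 genes with 95% intervals, for Poly(A:U) minus all 5 PBS libraries (black), minus PBS 1 to PBS 3 (red) and minus PBS 4 and PBS 5 (blue). For Cish the estimates are 0.71, 1.46 and 0.023 in that order, and for Socs2 0.35, 0.57 and 0.068.

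Some markers of other cells moved with the same split of the PBS libraries, namely the erythroid, neutrophil and mast cell or basophil sums. Sums for T cells, NK cells, macrophages, dendritic cells, megakaryocytes and stromal or endothelial cells did not separate PBS 1 to PBS 3 from the other libraries. The macrophage sum was nonetheless higher in PBS 1 to PBS 3 than in all others but PBS 4. The NK cell sum was higher there than in all others but Poly(A:U) 5. B cell precursor markers were highest in PBS 1 to PBS 3, and their part in the levels of Il7r and Jak3 was not tested. The sum of 10 erythroid markers was 1357 to 12313 CPM in Poly(A:U) libraries, 2473 and 11917 CPM in PBS 4 and PBS 5, and 139 to 435 CPM in PBS 1 to PBS 3. The sum of 10 neutrophil markers was 31.4 to 276 CPM in Poly(A:U) libraries, 53.2 and 52.8 CPM in PBS 4 and PBS 5, and 736 to 1101 CPM in PBS 1 to PBS 3. None of the markers of either list was at 0 in all libraries. Epor, the erythropoietin receptor, which also signals through STAT5, was at 0.95 to 4.25 CPM in Poly(A:U) libraries and 0.29 to 2.75 CPM in PBS libraries. The part of erythroid or neutrophil RNA in the levels of Cish and Socs2 was not tested.

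**Figure D4:**
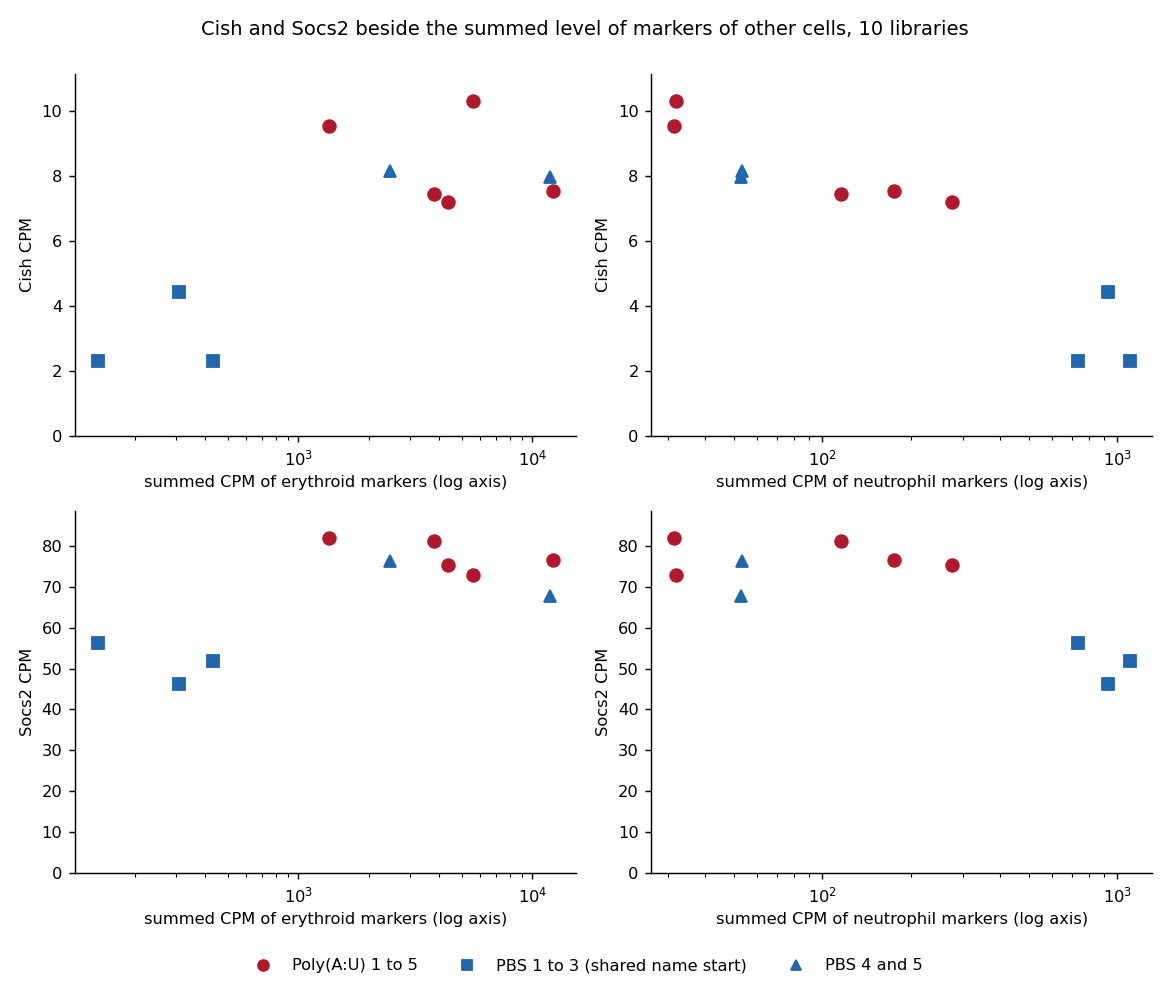
CPM of Cish (top) and Socs2 (bottom) against the summed CPM of erythroid markers (left) and neutrophil markers (right), with log horizontal axes and 1 point per library. PBS 1 to PBS 3 (squares) have the lowest erythroid sums (at most 435 CPM), the highest neutrophil sums (at least 736 CPM) and the lowest Cish and Socs2.

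The files also estimate each transcript. The main transcript was Il7r-201 with 86.2% of the TPM of its gene on average, Il2rg-201 with 85.0%, Jak1-201 with 98%, Stat5a-202 with 88.5%, Stat5b-201 with 85.1%, Socs2-201 with 79.9%, Pim1-201 with 79.7% and Cish-201 with 76.5%. Crlf2 and Jak3 were more divided, with 54.5% for Crlf2-201 and 64.3% for Jak3-202. Of 8 genes with a second transcript at 5% or more, the share of the main transcript had an adjusted p from 0.571 to 0.817 over the 8 (two-sided exact permutation test). The smallest unadjusted p that 5 libraries against 5 allow in this exact test is 0.00794, so 1 gene alone could not have passed the adjustment. The smallest p was that of Il2rg-201, with 86.8 ± 1.9% of the Il2rg TPM in Poly(A:U) and 83.1 ± 3.3% in PBS (SD, n = 5 each), a difference of 3.71 percentage points (p = 0.0714, exact permutation test). Shares of Cish-201 ranged from 36.3% to 98.7% at 41 to 209 reads per library and are too loose to compare.

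Of 66 other genes of the pathway, in 7 lists, 58 were tested, and edgeR called 0 of them higher and 0 lower between Poly(A:U) and PBS, against 0% of all genes. At an unadjusted p below 0.05 there were 8 of the 58, against 7.3% of all genes. DESeq2 called 0, against 0.0947%, and limma voom with quality weights called 13, against 6.79%. Log2 fold changes were positive for 20 and negative for 38, with a median of -0.11. Against PBS 1 to PBS 3 alone 19 were positive and 39 negative, and against PBS 4 and PBS 5 the split was 28 and 30. The ligand genes were at or near the floor, as Il7 was at no more than 0.54 CPM in any library, and Il15, the 1 ligand gene tested, at 0.54 ± 0.09 CPM in Poly(A:U) and 0.58 ± 0.14 CPM in PBS. Of the other receptor chain genes 5 of 6 were tested. Il21r had 13.1 ± 2.4 CPM in Poly(A:U) and 11.2 ± 3.0 CPM in PBS, and Il15ra 3.72 ± 0.63 CPM in Poly(A:U) and 3.12 ± 0.84 CPM in PBS.

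A list of 6 further JAK and STAT genes had 6 negative log2 fold changes, with a median of -0.18, and 4 negative and 2 positive ones against PBS 4 and PBS 5. Stat2, a subunit of the interferon-activated complex, had 59.5 ± 8.5 CPM in Poly(A:U) and 71.0 ± 11.5 CPM in PBS, Stat6, which acts below the interleukin-4 receptor, 137 ± 17.1 CPM in Poly(A:U) and 156 ± 17.1 CPM in PBS, and Stat4, which acts below the interleukin-12 receptor, 116 ± 11.7 CPM in Poly(A:U) and 127 ± 18.5 CPM in PBS (SD, n = 5 each). Of 17 feedback inhibitor genes 8 were positive and 9 negative, with a median of -0.054. Socs6 had 27.2 ± 4.1 CPM in Poly(A:U) and 21.9 ± 2.4 CPM in PBS, and Ptpn6, the phosphatase SHP-1, 299 ± 30.4 CPM in Poly(A:U) and 354 ± 47.5 CPM in PBS. The adjusted p-values of these genes lay between 0.677 and 0.960 in edgeR's test.

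Of 10 further STAT5 target genes tested, 6 were positive and 4 negative, with a median of 0.021, and against PBS 4 and PBS 5 there were 4 positive and 6 negative. Myc, the growth-promoting transcription factor gene, had 73.5, 78.0, 75.7, 81.9 and 116 CPM in Poly(A:U) libraries and 30.2, 30.8, 33.5, 96.1 and 68.4 CPM in PBS libraries. It was lowest in PBS 1 to PBS 3, as Cish and Socs2 were. Mcl1, which blocks cell death, had 335 ± 20.7 CPM in Poly(A:U) and 296 ± 35.9 CPM in PBS, and Ccnd3, the cyclin D3 gene of cycling pre-B cells, 895 ± 88.4 CPM in Poly(A:U) and 925 ± 78.4 CPM in PBS. Poly(A:U) against PBS 1 to PBS 3, edgeR called 2 of the 58 pathway genes, both higher, against 2.28% of all genes. They were Myc (log2 fold change 1.41, adjusted p = 0.00385) and Pim3, a kinase gene related to Pim1 and named after its values were seen (log2 fold change 1.00, adjusted p = 0.0168). The same genes were called lower in PBS 1 to PBS 3 than in PBS 4 and PBS 5, with log2 fold changes of -1.40 (adjusted p = 0.0159, edgeR) for Myc and -1.26 (adjusted p = 0.0216, edgeR) for Pim3. Of all genes, 0.561% were called in that contrast, in either direction. Against PBS 4 and PBS 5, Poly(A:U) gave 0.0066 for Myc and -0.25 for Pim3.

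Of 9 genes for regulators of Il7r transcription, 1 was positive and 8 negative, with a median of -0.19, and against PBS 4 and PBS 5 there were 5 positive and 4 negative. Runx1 had 156 ± 13.5 CPM in Poly(A:U) and 179.7 ± 17.5 CPM in PBS, Foxp1 316 ± 28.6 CPM in Poly(A:U) and 371 ± 87.3 CPM in PBS, and Ebf1, a transcription factor that specifies the B lineage, 641 ± 79.6 CPM in Poly(A:U) and 719.9 ± 164.1 CPM in PBS. The list of PI3 kinase and AKT genes, the parallel arm below the receptor, had 2 positive and 8 negative of 10, with a median of -0.13, and 5 of each against PBS 4 and PBS 5. In it Pik3cb had 1.47 ± 0.63 CPM in Poly(A:U) and 2.57 ± 1.06 CPM in PBS, Akt2 137 ± 8.8 CPM in Poly(A:U) and 148 ± 7.9 CPM in PBS, and Inpp5d, the lipid phosphatase SHIP1, 666 ± 67.7 CPM in Poly(A:U) and 744 ± 131 CPM in PBS.

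Over the 10 libraries, the genes whose log2 CPM was most like that of Il7r among 8447 protein-coding genes of at least 10 CPM were Card6 (Pearson r = 0.97), L3mbtl3 (0.96), Bicra (0.96), Rnf216 (0.95) and Tax1bp1 (0.95). Each of the 5 had a negative log2 fold change between Poly(A:U) and PBS, from -0.38 for Bicra to -0.13 for Tax1bp1. Their adjusted p-values were from 0.677 to 0.699 in edgeR's test. Because they were picked for likeness to Il7r, at -0.23, in these same libraries, the shared sign follows largely from the choice. The correlations are a description over libraries that share the differences between PBS libraries given above.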

How the data were processed

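RNA-seq was made from sorted leukemia initiating cells of 5 Poly(A:U) and 5 PBS pups. The authors deposited estimated counts and TPM per transcript with effective lengths, per the file headers, and a table of normalized signal per gene. DRAGEN, edgeR 3.38.4 and the build mm10 appear in the submitters' processing notes. Counting settings, strand and annotation release were not given in the sources used here.

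Estimated counts were summed per gene with GENCODE M21 (538 of 142333 transcripts had no gene) and rounded to whole numbers. Log2 CPM from these sums correlated at 0.997 or more with the deposited signal in each library, across genes. CPM uses library totals of 17859006 to 22587871 reads. Errors and intervals cover the spread between pups together with counting error.

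Genes passing filterByExpr (minimum count 10) entered edgeR's quasi-likelihood test with TMM factors, a robust fit and treatment as the only term (R 4.3.3, edgeR 4.0.16). P-values were adjusted by Benjamini-Hochberg over 13729 genes with a threshold of 0.05. Poly(A:U) is on top of each log2 fold change other than those within PBS, with standard errors from the F statistic. DESeq2 1.42.0, limma 3.58.1 voom with quality weights and the other alternatives are given in the closing section. The main edgeR fit, DESeq2 and limma voom were checked on simulated counts, and the other alternatives were not. The simulated counts gave all PBS libraries the same mean level of each gene. Exact permutation tests were run with scipy 1.17.1.

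The genes, the pathway lists and the marker lists were chosen with earlier results of these data known. From each pathway list the text names called genes or, with none, the 2 tested genes of smallest unadjusted p and the gene of highest TPM. One listed gene is not reported here. The 10 libraries were treated as separate pups, per the study's design text, and no pair of libraries of a group agreed within sampling noise.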

Additional observations from a re-analysis of the deposited data

Results flagged for a closer look

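A value is given here where the highest or lowest of 5 libraries was separated from the next by more than 0.71 of the range of the 5. This held for 8 values in 72 groups of values checked, where chance gives about 1 in 20. PBS 4 gave 3 of them. Stat5a was at 95.4 CPM in PBS 4, with the other PBS libraries at 43.6 to 47.0 CPM, Stat5b at 138 CPM in PBS 4, with the others at 102 to 106 CPM, and the Stat5b share of STAT5 TPM at 49.9% in PBS 4 and 62.1% to 64.3% in the others. Poly(A:U) 5 gave 2 of them, Stat5a at 55.0 CPM, with 43.5 to 46.2 CPM in the other Poly(A:U) libraries, and Myc at 116 CPM, with 73.5 to 81.9 CPM in the others. In Poly(A:U) 2, Foxp1 was at 266 CPM (319.7 to 335 CPM in the other Poly(A:U) libraries) and Inpp5d at 549.5 CPM (669.5 to 715 CPM). In PBS 5, Pim1 was at 181 CPM, with 121 to 129.7 CPM in the other PBS libraries.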

How the results depend on the processing

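The count of called genes was 13 with DESeq2 and 932 with limma voom, and ran from 0 to 18 over the fits that each left out 1 library, 18 without PBS 5. DESeq2 and the edgeR fits with other factors, other filters, a length offset or fewer libraries called 0 of the 10 members and 0 of the pathway genes, the filter of 10 CPM leaving no value for Cish. Limma voom called 4 and 13. Leaving out single libraries gave log2 fold changes from -0.31 to -0.19 for Il7r, 0.52 to 0.96 for Cish, 0.27 to 0.46 for Socs2, 0.12 (without Poly(A:U) 2) to 0.29 (without PBS 5) for Pim1, -0.21 (without Poly(A:U) 2) to -0.0026 (without Poly(A:U) 5) for Crlf2, -0.15 (without PBS 4) to -0.048 (without PBS 3) for Jak3, -0.24 (without Poly(A:U) 5) to -0.097 (without PBS 4) for Stat5b and -0.35 (without PBS 5) to 0.036 (without PBS 4) for Stat5a. The cause of the changes below was not tested. Changes of sign in gene levels are listed only for the 10 members and the pathway genes named for smallest p or highest TPM. The list leaves out other pathway genes. Without PBS 1 to PBS 3 the sign turned for Jak3 (0.087), Il15 (0.064), Stat4 (0.093), Foxp1 (0.066), Ebf1 (0.15) and Inpp5d (0.072). With the shared parts of the names fitted as covariates, the treatment estimate rests on PBS 4, PBS 5, Poly(A:U) 1 and Poly(A:U) 5 alone. Only these have a name part that occurs in both groups. In that fit the sign turned for Il7r (0.017 ± 0.12, SE), Jak1 (0.14), Jak3 (0.043), Pim1 (-0.090), Il15 (0.051), Il21r (-0.14), Stat2 (0.055), Stat6 (0.035), Stat4 (0.14), Runx1 (0.0060), Foxp1 (0.15), Ebf1 (0.31) and Inpp5d (0.16). The difference in Stat5b share ran from -2.67 to 0.93 percentage points over the fits without 1 library, and was 0.16 as a share of reads and 3.26 without PBS 1 to PBS 3, where 5 libraries against 2 cannot give a p below 0.0952. Transcript shares called 0 of 8 genes under each alternative, but with so few libraries the exact tests could hardly call any, so this says nothing about stability. Their differences turned sign as shares of reads for Il7r-201 (-1.35) and Cish-201 (-6.93), and without PBS 1 to PBS 3 for Il7r-201 (-0.002), Jak3-202 (-0.79), Cish-201 (-2.58) and Socs2-201 (-3.05). Without 1 library they ran from -0.47 to 1.77 for Il7r-201, -4.95 to 1.5 for Crlf2-201, -4.33 to 14.2 for Cish-201 and -1.51 to 2.97 for Socs2-201.

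With the replicate number as a block edgeR called 0 genes, 0 of the 10 members and 0 pathway genes, with log2 fold changes of -0.22 for Il7r, 0.89 for Cish and 0.37 for Socs2. The Stat5b share differed by -0.04 percentage points within pairs of one number (p = 1, exact sign-flip permutation test). The smallest p this exact test allows is 0.0625, so neither this share nor any of the 8 transcript shares, of which 0 passed, could have passed. Deviations of libraries with the same number correlated at 0.02, 0.14, 0.14, -0.13 and -0.18 for numbers 1 to 5, so the numbers do not pair the libraries.

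The depth of 41 to 209 reads for Cish limits its transcript shares, while gene levels of the other 9 members rest on 810 reads or more and are limited by the spread between pups.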
